A study of Bos taurus with 2 samples.

Results

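Glycolysis in the testis uses isozymes of its own. The genes described here are 8 members of the pathway, the germ-cell forms PGK2, GAPDHS and LDHC and the somatic forms PGK1, GAPDH, LDHA, LDHB and HK1. They were chosen by name: every array spot that is not a control and whose gene name is that of a member was taken, which gave 8 of 32429 gene names and 26 of 61657 spots, read by 25 oligos of 60 bases. The study compared testis RNA of crossbred bulls, which were Holstein Friesian crossbreds with 50 to 75% exotic inheritance, with that of Zebu bulls of the Tharparkar breed. All were 24 months old and gave the right testis by unilateral castration. RNA of 3 bulls was pooled in each group, and each pool was hybridized to 1 array of the same slide, so the spread between bulls was not measured and no test between the groups was possible.

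Hexokinase (HK) starts glycolysis by adding a phosphate to glucose. Glyceraldehyde-3-phosphate dehydrogenase (GAPDH) and phosphoglycerate kinase (PGK) carry out the consecutive steps in which the pathway's first ATP is made, and lactate dehydrogenase (LDH) interconverts pyruvate and lactate. PGK1 lies on the X chromosome, which is silenced in meiotic male germ cells, and PGK2 is an autosomal retrogene copy of it that is transcribed from meiosis on. GAPDHS is a spermatid enzyme that is bound to the fibrous sheath of the sperm tail, and LDHC encodes the LDH subunit of spermatocytes, spermatids and sperm. LDHA and LDHB encode the subunits of the somatic tetramers, and HK1 is the broadly expressed hexokinase. The name somatic form is a simplification for these last genes, because germ cells transcribe them too, and HK1 has transcripts of its own in male germ cells.

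The oligos of the germ-cell forms are shown first, because what they can tell apart decides how their values are read. Oligos are numbered within a gene from the brightest to the dimmest. Coordinates are those of the array annotation, build HGSC Btau_3.1. The PGK2 oligo lies at chr23:22955627-22955686 on the minus strand, and that of LDHC at chr29:27538785-27538844 on the minus strand. GAPDHS oligo 1 is placed at chr18:45628265-45628414 and oligo 2 at chr18:45625918-45626342, both on the plus strand, and their 60 bases stretch over 150 and 425 bases of genome. In GAPDHS oligo 1 and GAPDH oligo 4, capitals mark the bases at which they differ where they overlap, and the other oligos are in lower case throughout.
PGK2 oligo 1: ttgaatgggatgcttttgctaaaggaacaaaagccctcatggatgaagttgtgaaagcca
LDHC oligo 1: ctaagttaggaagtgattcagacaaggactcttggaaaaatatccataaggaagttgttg
GAPDHS oligo 2: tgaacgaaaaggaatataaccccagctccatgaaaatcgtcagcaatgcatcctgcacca
GAPDHS oligo 1: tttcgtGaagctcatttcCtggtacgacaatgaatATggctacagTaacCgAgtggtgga
GAPDH oligo 4: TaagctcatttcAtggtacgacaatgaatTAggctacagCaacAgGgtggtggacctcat
GAPDHS oligo 1 matched GAPDH oligo 4 at 47 of 54 overlapping bases, with 7 mismatches, and shared an unbroken run of 28 bases with GAPDH oligo 3. GAPDHS oligo 2 was more distinct, with a longest shared run of 11 bases with any GAPDH oligo. The PGK2 oligo shared at most 6 bases in a row with a PGK1 oligo, and the LDHC oligo at most 7 with an LDHA and 6 with an LDHB oligo. Whether GAPDH transcripts bind GAPDHS oligo 1 was not tested.

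Values below are log2 signals minus the 75th percentile of the array, so that 0 is the level of that percentile, and every difference is crossbred minus Zebu. Levels of different oligos cannot be set against each other. Replicate spots of a probe gave an SD of 0.33 for a difference, and different probes of a gene an SD of 0.51 over 8185 gene names. A gene was read from its brightest oligo, and of the 25 oligos 23 were well above background on both arrays. The germ-cell forms were all higher in the crossbred pool, with a median difference of 0.90 over the 3 genes (range 0.50 to 0.93). The somatic forms had a median of -0.40 over the 5 genes (range -0.89 to 0.59), with PGK1, GAPDH and LDHB lower and LDHA and HK1 higher. Among all 24751 detected gene names the median was -0.06 and 46.9% were higher. By the brightest oligos 0 of the 8 genes differed by 1.5 or more, where 7.12% of detected gene names were higher and 2.92% lower by that much, and 0 of 8 by 1 or more, where 12.8% were higher and 8.87% lower. With the mean or the median of a gene's oligos in place of the brightest, GAPDHS was at 1.59 and was the 1 member past either limit. The array holds RNA of whole testis, so more or fewer cells of a type and more or less RNA per cell cannot be told apart.

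**Figure D1:**
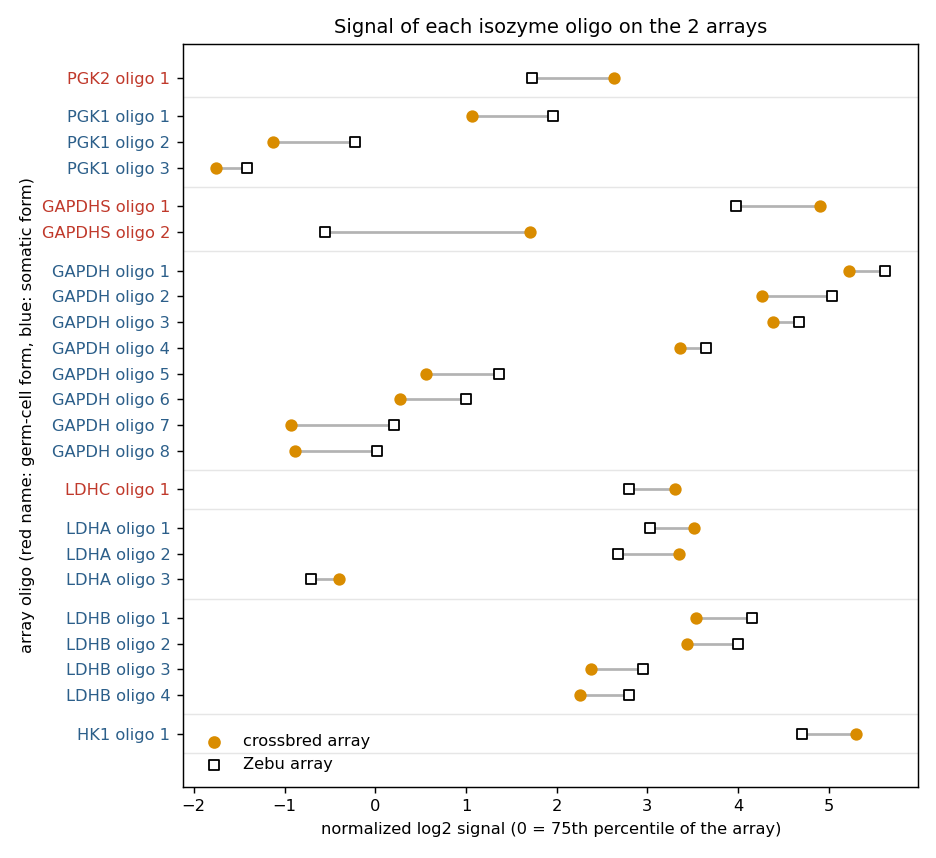
Normalized log2 signal (x axis, 0 being the 75th percentile of the array) of the 23 isozyme oligos measured above background on both arrays (y axis), filled circles for the crossbred and open squares for the Zebu array. The circle lies right of the square for all 4 germ-cell oligos, for LDHA and for HK1, and left of it for PGK1, GAPDH and LDHB.

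At the PGK step the pair moved apart. The PGK2 oligo read 2.63 on the crossbred array against 1.73 on that of Zebu, from signals of 7266 and 4076, a difference of 0.90 or 1.87-fold. This is more than the SD between spots, and 85.6% of detected gene names had a lower value. PGK1 oligo 1 read 1.07 and 1.96, a difference of -0.89, and oligo 2 read -1.13 and -0.22, a difference of -0.91. PGK1 oligo 3, the dimmest, read -1.75 and -1.42, and its difference of -0.33 is about the SD between spots. All 3 were thus lower in the crossbred pool, with a mean of -0.71 ± 0.33 (SD over 3 oligos of the same 2 arrays), and all lie on a contig not placed on a chromosome in that build. Oligos 2 and 3 of PGK1, shown because they read the other side of this pair, have the following sequences.
PGK1 oligo 2: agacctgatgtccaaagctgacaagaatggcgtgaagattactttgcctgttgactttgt
PGK1 oligo 3: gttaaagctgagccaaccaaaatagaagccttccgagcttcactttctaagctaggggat
The difference of PGK2 minus that of PGK1 was 1.79, or 3.47-fold, and it lay between 1.24 and 1.81 over the 3 combinations of their oligos. A scaling of a whole array cancels in this value, whose SD from replicate spots is 0.47.

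GAPDHS and GAPDH also moved in opposite directions. GAPDHS oligo 1, the brighter, read 4.90 on the crossbred array against 3.97 on that of Zebu, a difference of 0.93 or 1.90-fold. GAPDHS oligo 2 read 1.71 and -0.55, from signals of 3838 and 840, a difference of 2.26 or 4.79-fold. The oligo that shares less sequence with GAPDH thus had the larger difference. The SD over both GAPDHS oligos was 0.94, beside the SD of 0.51 between probes of a gene. GAPDHS oligo 2 was the 1 oligo of the 23 to differ by 1.5 or more, where 6.14% of all 39804 detected probes were higher by that much.

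GAPDH itself, widely used as a reference gene, was lower in the crossbred pool by all 8 of its oligos, which averaged -0.67 ± 0.31 (SD over 8 oligos). The paper, by qPCR in a larger set of single bulls of both groups, judged GAPDH stable and used it as its reference. The values here come from 1 pool per group, so they do not show that GAPDH differs between the breeds. The 4 brightest read 5.22, 4.26, 4.38 and 3.36 on the crossbred array and 5.62, 5.03, 4.67 and 3.64 with Zebu RNA, differences of -0.40, -0.77, -0.29 and -0.29. Those of oligos 3 and 4 are within the SD between spots. Oligos 5 to 8 read 0.55, 0.28, -0.93 and -0.88 against 1.37, 0.996, 0.21 and 0.02, differences of -0.81, -0.72, -1.14 and -0.90. The smallest differences were thus those of the 2 oligos that resemble GAPDHS oligo 1, and the largest that of oligo 7. GAPDH oligo 2 had replicate spots, the only member oligo that did, and its 2 spots gave -0.89 and -0.66. Oligo 1, from which the gene was read, is placed on chromosome 1, away from the other 7 on chromosome 5. Mammalian genomes hold processed copies of GAPDH, so a GAPDH oligo may read more than 1 locus. Oligos 5, 6 and 7 overlap within chr5:10854818-10854974 on the minus strand but are not identical, and capitals mark where they differ from each other.
GAPDH oligo 5: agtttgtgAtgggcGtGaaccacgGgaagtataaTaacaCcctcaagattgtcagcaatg
GAPDH oligo 6: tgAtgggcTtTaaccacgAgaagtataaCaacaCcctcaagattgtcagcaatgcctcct
GAPDH oligo 7: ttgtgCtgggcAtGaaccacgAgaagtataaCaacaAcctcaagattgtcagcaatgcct
Any pair of these differs at 4 or 5 bases of the 54 to 57 they share, and all 3 were lower in the crossbred pool. GAPDHS minus GAPDH was 1.33, or 2.51-fold, from the brightest oligos, and between 1.21 and 3.40 over the 16 combinations of their oligos. It was 1.70 without the GAPDH oligo on chromosome 1 and 2.66 with GAPDHS read from its oligo 2.

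**Figure D2:**
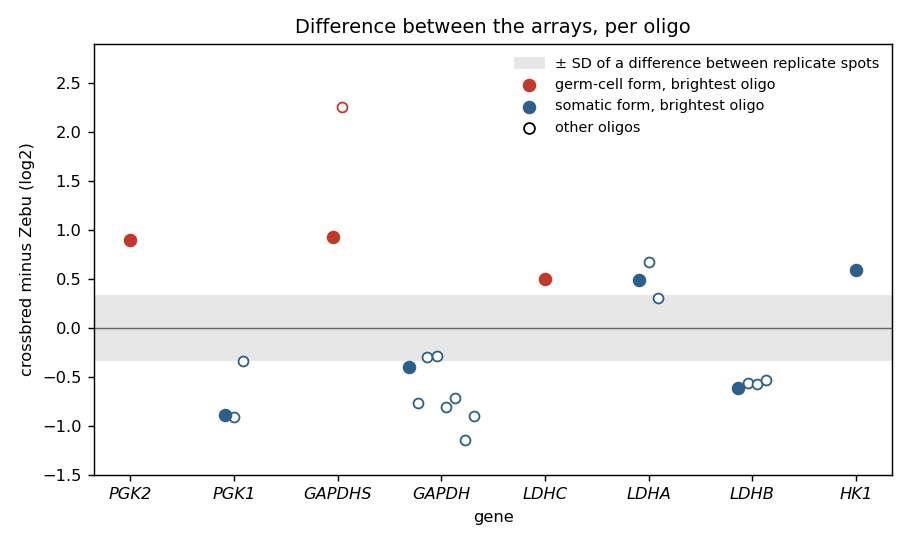
Difference between the arrays (y axis, crossbred minus Zebu, log2) of each oligo well above background on both arrays, by gene (x axis), filled for the brightest oligo of a gene. The grey band is ± 0.33, the SD that replicate spots give for a difference: the 3 germ-cell forms lie above it, and PGK1, GAPDH and LDHB have every oligo below 0.

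At the LDH step the split did not follow germ-cell against somatic form. LDHC read 3.30 on the crossbred array against 2.80 on that of Zebu, a difference of 0.50 or 1.41-fold. LDHA was higher by nearly the same amount: its oligos read 3.52, 3.35 and -0.40 against 3.03, 2.68 and -0.71, differences of 0.49, 0.67 and 0.31, the last within the SD between spots. LDHB was lower by all 4 oligos above background, which read 3.54, 3.43, 2.38 and 2.26 against 4.16, 3.997, 2.95 and 2.79. Its differences of -0.62, -0.57, -0.57 and -0.54 were the closest set among the members, with a mean of -0.57 ± 0.03 (SD over 4 oligos, of which oligos 1 and 2 share 38 bases). The fifth LDHB oligo, designed to an expressed sequence tag, was not well above background on either array. LDHA oligo 3 and LDHB oligos 3 and 4 are shown to set beside that of LDHC.
LDHA oligo 3: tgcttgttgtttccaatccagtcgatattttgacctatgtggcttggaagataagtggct
LDHB oligo 3: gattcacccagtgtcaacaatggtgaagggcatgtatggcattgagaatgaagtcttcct
LDHB oligo 4: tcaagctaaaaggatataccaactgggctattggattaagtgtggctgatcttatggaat
LDHC minus LDHA was 0.01, between -0.17 and 0.19 over the 3 combinations, which is inside the SD of 0.47 that replicate spots give for such a value, so a gap smaller than this was not detectable. LDHC minus LDHB was 1.12, or 2.17-fold (1.03 to 1.12 over 4 combinations), and LDHA minus LDHB was 1.10 (0.85 to 1.29 over 12). LDHC and LDHA lie near each other on chromosome 29, where 21821 bases lie between their nearest oligos in the array annotation. LDHA oligo 3 was the only member spot inside a marked patch of the slide, a dark area of the crossbred array at rows 54 to 99 and columns 35 to 46. The detected spots among its 18 nearest had a median of -0.31. The brighter 2 LDHA oligos, outside the patch, were higher too. No member lay in the bright patch that was also marked. Around the other member spots the medians of the detected spots among the 18 nearest ran from -0.48 to 0.60. LDHB oligo 4, at -0.54, sat where that median was highest, and GAPDH oligo 1, at -0.40, had one of 0.58. GAPDH oligo 7, at -1.14, sat where it was lowest, the spot of GAPDH oligo 5, at -0.81, had one of -0.39, and the LDHC spot, at 0.50, had one of 0.33. The part of the place on the slide in these values was not tested.

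A pair of further probes reads LDHC without carrying its name, and both were looked up after the member values were known. The probe of another RefSeq accession of LDHC read 4.52 and 3.99, a difference of 0.53 (0.37 and 0.68 in its 2 spots). The probe whose description names an LDHC isoform read 3.24 and 2.48, a difference of 0.77 (0.68 and 0.85 in its 2 spots). Both stood on the same side of 0 as the LDHC oligo. HK1 was read by its oligo 1 at 5.30 on the crossbred array against 4.71 on that of Zebu, a difference of 0.59. HK1 oligo 2, whose accession is not in the current gene table, was not well above background on either array, so HK1 rests on 1 spot.

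**Figure D3:**
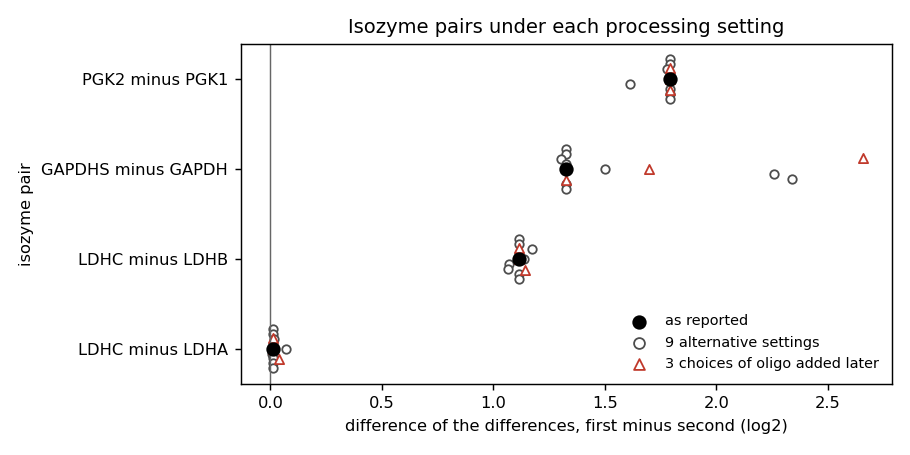
Difference of the differences (x axis, log2, first gene minus second) for the 4 pairs of a germ-cell and a somatic isozyme (y axis), as reported (filled), under 9 alternative settings (open circles) and 3 choices of oligo added later (triangles). PGK2 minus PGK1 stays between 1.61 and 1.79 and LDHC minus LDHA near 0, while GAPDHS minus GAPDH runs from 1.31, with quantile normalization, to 2.66, with GAPDHS read from its oligo 2.

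The other enzymes of the pathway give the setting of these values. Of 23 other glycolytic enzymes listed, 22 were found on the array and detected, 15 higher and 7 lower, with a median of 0.30. HKDC1, a hexokinase domain protein, was highest at 1.73, and 2 of the 22 were higher by 1.5 or more and 0 lower, where 7.12% and 2.92% of all detected gene names were. LDHD, the D-lactate dehydrogenase, was lowest at -1.17, and its crossbred signal was not well above background. HK2, not found by name, was read by 3 probes through their descriptions, which gave -0.30, 1.07 and 0.37 and so had no common direction. LDHAL6B, an intronless relative of LDHA with testis expression, was at 0.38, close to LDHA, with a difference of -0.10 between them.

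Other isozyme pairs were set beside the members. PDHA1 and PDHA2 encode the E1 alpha subunit of pyruvate dehydrogenase, and like PGK1 and PGK2 they are an X-linked gene and its autosomal retrogene of the germ line. PDHA2 read 4.31 and 3.03, a difference of 1.28, and PDHA1 read 0.72 and 1.42, a difference of -0.70. Their gap of 1.99 compares with 1.79 for PGK2 and PGK1. PDHA2 has 1 oligo, and of the 4 PDHA1 oligos only 1 was well above background on both arrays. PGAM2, the muscle-type phosphoglycerate mutase, was at 1.17 and PGAM1 at -0.16, a gap of 1.33. ENO4, an enolase of sperm, and ENO1 were at 0.33 and 0.31, with a gap of 0.02, so the enolase pair, like LDHC and LDHA, did not move apart.

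**Figure D4:**
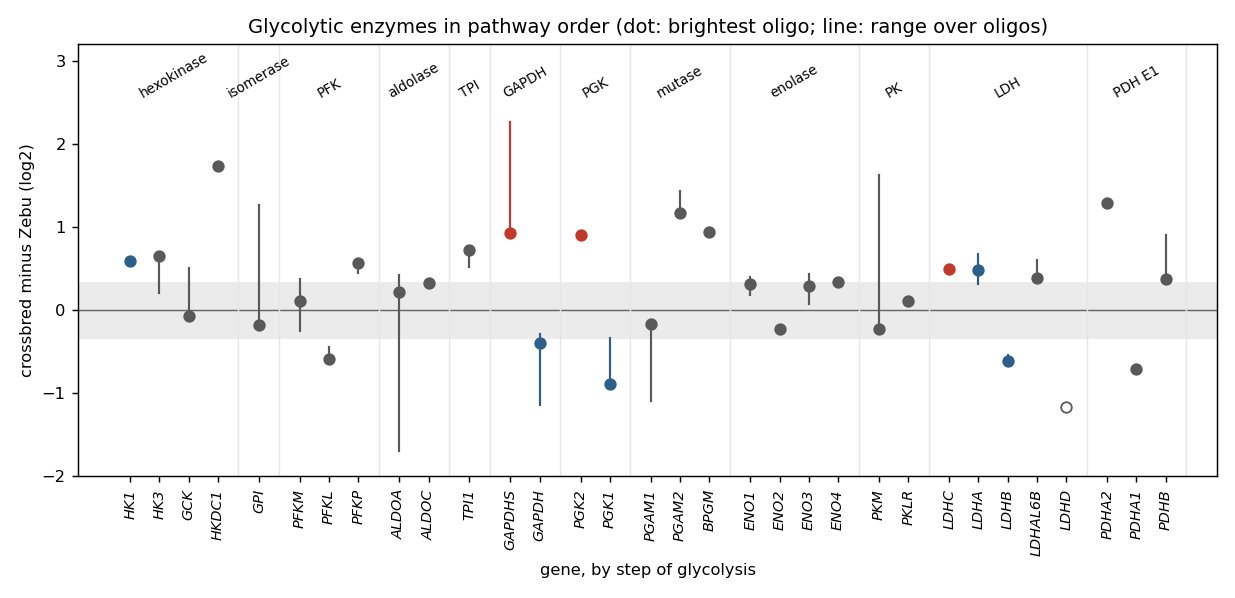
Difference of the brightest oligo of each enzyme shown (dots, y axis, crossbred minus Zebu, log2) by step of glycolysis (x axis), with the range over the gene's oligos as a line, red for germ-cell forms, blue for somatic forms and grey for other enzymes; the open dot is dim in the crossbred pool, and the grey band is ± 0.33. PGK, GAPDH and PDH E1 hold members on both sides of 0, whereas LDHC and LDHA lie together above it.

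Markers of the cells of the testis were set beside the isozymes. Some of them, among them SPEM1, TNP2, AKAP4, CYP17A1 and SALL4, stand in the paper's lists of up- or downregulated genes. Those lists come from the same 2 arrays, so the directions below are not independent of them. All 8 genes listed for the fibrous sheath, the structure that carries GAPDHS, were higher, with a median of 1.12. They ran from ROPN1L at 0.47 to AKAP4, the main scaffold protein of the sheath, at 1.71, and ROPN1 also passed 1.5, at 1.60. The list and its median include TEKT2, at 1.04, which is a tektin and not a gene of the sheath. All 14 spermatid markers were higher (median 1.80), from PRM1 at 0.36 to SPEM1 at 2.92. Besides SPEM1, those past 1.5 were TNP2 at 1.74, PRM2, PRM3, ACRV1, SPACA4, ODF1, CABS1, OAZ3 and TSSK6. With SPEM1 they make 10 of the 14, beside 2 of the 8 listed for the sheath. Of all detected gene names, 7.12% were higher by that much. In the paper's qPCR SPEM1 went the opposite way to the array, whereas TNP1 and TNP2 went the same way. The summed level of the spermatid markers was 960 on the crossbred and 420 on the Zebu array, on a linear scale where the 75th percentile is 1. Such a sum is set mostly by the brightest oligos of a list and is not an amount of a cell type. The 8 spermatocyte markers found were all higher with a median of 0.42, from HORMAD1 at 0.14 to DMC1 at 1.04, with summed levels of 39.9 and 29.7. Of the detected spermatogonia markers 6 were lower and 2 higher. Their median was -0.80, from SALL4 at -1.65 to STRA8 at 0.59, with summed levels of 30.9 and 43.7. All 7 detected Sertoli cell markers were lower (median -1.08, from DHH at -1.53 to FSHR at -0.45, summed levels 55.0 and 104), and INHBB was not well above background on either array. All 6 Leydig cell markers were lower (median -0.79, from HSD3B1 at -1.77, with CYP17A1 at -1.68, to LHCGR at -0.10, summed levels 87.8 and 133). So were all 6 peritubular and smooth muscle markers (median -0.77, from DES at -1.02 to MYH11 at -0.50, summed levels 39.9 and 68.8). By the sign of the median alone, PGK1, GAPDH and LDHB stood on the side of the Sertoli, Leydig, peritubular and spermatogonia lists. LDHA and HK1, also somatic forms, stood on that of the spermatocyte and spermatid lists, and of the endothelial and macrophage lists given below. With 2 arrays no likeness of patterns could be measured. Endothelial markers had a median of 0.08, from KDR at -0.38 to CDH5 at 0.28 (summed levels 0.951 and 0.974), and macrophage markers one of 0.20, from CD163 at -0.45, which was dim in the crossbred pool, to AIF1 at 1.95 (17.9 and 9.32). Of the red blood cell markers, HBA was at -2.15, while HBB and ALAS2 were not well above background on either array (0.542 and 2.35). The part of these cell types in the differences of the isozymes was not tested.

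**Figure D5:**
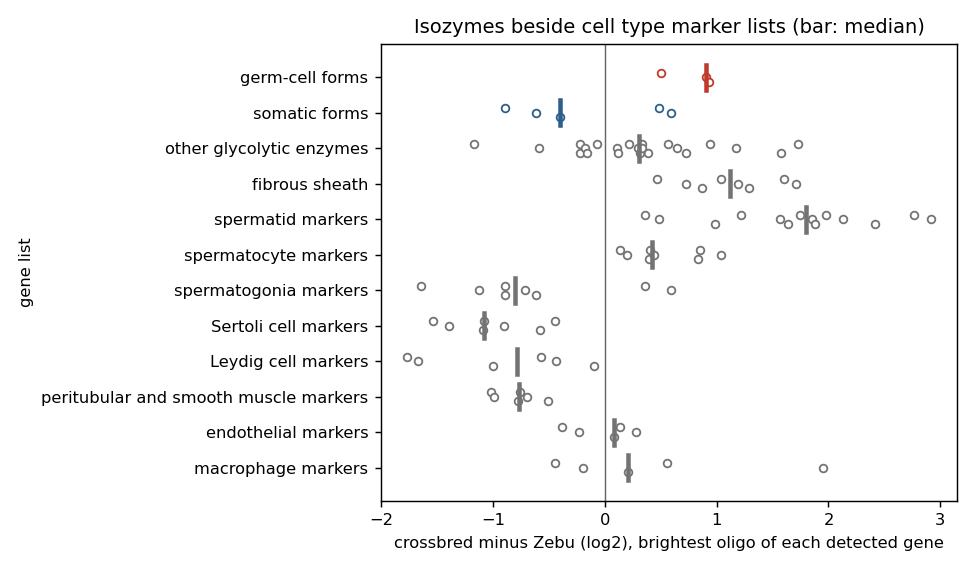
Difference of the brightest oligo of each detected gene (x axis, crossbred minus Zebu, log2) by gene list (y axis), with bars at the medians. The germ-cell forms lie between the spermatocyte (0.42) and spermatid (1.80) medians, and the somatic forms spread from -0.89 to 0.59.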

How the data were processed

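The arrays were 1-colour (Cy3) Bos taurus arrays, 1 for each pool. The authors deposited the processed signal of Agilent Feature Extraction 11.5.1.1, a background-subtracted intensity that was not normalized between arrays, and log2 values shifted by the 75th percentile, which were used as an alternative. Control spots and 13 outlier spots were left out, and 0 spots were saturated. For each probe the log2 signals of its spots were averaged, and the 75th percentile over the 51279 probes left was taken off (a signal of 1176 on the crossbred and 1233 on the Zebu array). Of the non-control spots, 72.0% and 74.3% were well above background. A gene name counted as detected where its brightest probe was marked as well above background by the scanner software on 1 or both arrays. With 1 array per group the number of arrays limits the precision, and no test was made. The members and lists were chosen with earlier results of these data known. Every member oligo is named. Of the lists, the genes past 1.5, the extremes and PDHA1, PDHA2, ENO4, PGAM2, HK2, LDHAL6B, AKAP4, PRM1 and TNP2 are named, except that some are not reported here. Accessions were looked up in the RefSeq gene table. Alternatives were other shifts, quantile normalization, normexp with an offset of 50, other rules for the probe, for spots and for dim probes, other thresholds, and 3 choices of oligo added after seeing the data. The steps were tested on simulated data. Python 3.11.15, pandas 2.3.3, numpy 2.4.6, R 4.3.3 and limma 3.58.1 were used.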

Additional observations from a re-analysis of the deposited data

How the results depend on the processing

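None of the 8 members changed sign under 9 alternative settings or 3 choices of oligo added after seeing the data, and the pairs did not either. PGK2 minus PGK1 lay between 1.61 and 1.79 and LDHC minus LDHB between 1.07 and 1.17 under the 9 settings. GAPDHS minus GAPDH, reported as 1.33, was 2.26 with the mean of all detected probes of a gene and 2.34 with their median, and, as added choices, 2.66 with GAPDHS read from its oligo 2 and 1.70 without the GAPDH oligo on chromosome 1. Of the genes of the 4 other lists of the pathway, 3 of 52 were higher and 0 lower by 1.5 or more, where 7.12% and 2.92% of all detected gene names were. With a threshold of 1 there were 7 higher and 1 lower (12.8% and 8.87% of all detected gene names). With normexp 1 was higher, and with a threshold of the log2 of 1.5 there were 10 higher and 6 lower. The shares of all detected gene names were not computed for these last 2 settings, so their counts cannot be read as a result about the pathway. No paired analysis was possible because each group has 1 array. The spread between spots covers spotting and scanning only, and the spread between bulls is unknown.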

Other observations

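Beside the enzymes, 3 lists of genes that feed or control the pathway were read. Of the regulators of glycolysis, 4 of 6 found were detected, from PFKFB3 at -0.54 to PFKFB2 at 0.02 (both make and break down fructose 2,6-bisphosphate), with a median of -0.25. The list of pyruvate dehydrogenase and its carriers had a median of -0.09 over 14 genes, from PDK3 at -0.82 to PDK1 at 1.94, both kinases that inhibit the complex. PDK1 was the 1 gene of this list past 1.5, but its oligos ran from -0.29 to 1.94. Glucose and lactate transporters and polyol enzymes had 12 of 13 genes detected and a median of 0.22, from EMB, a partner of lactate transporters, at -0.96 to the glucose transporter SLC2A4 at 0.47. Together with the other glycolytic enzymes, 52 of 57 listed genes were detected, 30 higher and 22 lower, with a median of 0.12.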
